A study of Mus musculus with 6 samples.

Results

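Pomc, the gene of the pro-opiomelanocortin precursor, was followed in the hypothalamus of adult female mice together with 3 enzymes that turn the precursor into peptides (Pcsk1, Cpe and Pam), with Tbx19 and Pax7, transcription factors of the pituitary cells that make it, and with Oacyl, whose name stands for O-acyltransferase like. The genes were taken by their symbol in the annotation of the array, each with the probeset of highest mean signal over the 6 arrays. Pomc and Oacyl had been selected on their difference between the groups in these same arrays, so their values are given as a description with no test. The other genes joined the set with results of these arrays known, and their tests are those of the whole table. Of the 8 genes listed, 7 were measured, each by 1 probeset, among 16663 genes tested in all. Pcsk2, the prohormone convertase that shortens ACTH to the melanocyte-stimulating peptide, was not analysed here.

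The study asked how blocking the NMDA-type glutamate receptor during development affected gene expression in the adult hypothalamus. The CGP group was female C57Bl/6J offspring whose mothers were given CGP 39551, an antagonist of this receptor, at 5 mg/kg body weight by mouth from pregnancy to the end of weaning. The CON group was female C57Bl/6J controls of the same age, with no drug named in their labels. Mice of both groups were killed at 21 weeks, RNA of 18 mice was pooled for each group, and 3 arrays were run for each group. Whether these 3 arrays carried separate pools or repeats of 1 pool is not given in the labels. A p-value here therefore takes account of array spread alone, possibly all technical, and variation between mice is not known.

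Signals are log2 values normalised across the arrays (RMA), on which a difference of 1 is a doubling. The signal of one probeset cannot be set against that of another. The 6 arrays were alike, with medians between 8.191 and 8.206 and correlations of 0.9973 to 0.9983 within a group and 0.9963 to 0.9978 between groups. Of 18239 probesets tested, 28 were higher (0.154%) and 23 lower (0.126%) in CGP at an adjusted p under 0.05. The labels give the tissue as hypothalamus, although 1 protocol sentence names the adrenal glands as the organ taken. Hypothalamic transcripts were present on every array, with Hcrt at 12.54 in CGP and 12.51 in CON, Pmch at 11.93 in CGP and 11.95 in CON, and Oxt at 12.22 in CGP and 12.16 in CON. The adrenal enzyme genes Cyp11a1 and Cyp11b1 lay close to the signal minimum of 6 set for testing, at 6.04 and 6.09 in CGP and 6.08 and 6.10 in CON. They were the lowest of the adrenal genes tested. Cyp21a1 was at 6.41 in CGP and 6.37 in CON, Star at 6.72 and 6.60, and Cyp11b2 at 7.03 in both. The hypothalamic genes named above are among the highest of theirs, and Crh was at 7.20 in both groups. Pituitary transcripts were also present, with Gh at 13.66 in CGP and 13.27 in CON and Prl at 13.32 in CGP and 13.22 in CON. Since these are different probesets, their levels are given as a description, and the tissue taken was not tested from them.

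POMC is made as one long protein that is cut inside secretory granules. In corticotrophs of the anterior pituitary, prohormone convertase 1, the product of Pcsk1, releases ACTH and beta-lipotropin. In melanotrophs of the pituitary intermediate lobe, and in neurons of the arcuate nucleus, further cleavage gives alpha-MSH and beta-endorphin, after which carboxypeptidase E (Cpe) trims the exposed basic residues and the enzyme encoded by Pam amidates the end of alpha-MSH. TBX19, also called TPIT, is needed for Pomc transcription in corticotrophs and melanotrophs but not in arcuate neurons, and PAX7 sets the melanotroph identity. Arcuate POMC neurons restrain feeding through the melanocortin 4 receptor.

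The upstream sequence of Pomc is shown because Pomc had the largest difference of the genes described and because its pituitary regulators are known to act through DNA near this gene. The run below is the 250 bases before the gene start in RefSeq (GRCm38.p6, chr12:3954695-3954944, plus strand), with 60.0% G and C. Capitals mark 2 matches to the E-box CANNTG (from -200 to -195 and from -147 to -142, counted back from the start) and 1 match to TATAAA (from -25 to -20).
Pomc: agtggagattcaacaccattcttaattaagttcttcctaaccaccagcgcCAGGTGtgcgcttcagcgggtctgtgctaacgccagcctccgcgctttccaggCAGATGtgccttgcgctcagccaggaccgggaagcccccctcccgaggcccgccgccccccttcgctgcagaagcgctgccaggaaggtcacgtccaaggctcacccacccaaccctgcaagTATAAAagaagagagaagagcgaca
Both strands were searched, and the matches do not overlap each other. The T-box half-site was searched as the letters TCACACC, which do not occur in this window. The core letters known for PITX factors were searched as TAATCC and do not occur in it either. Sites further upstream, or sites with other letters, could not be found by this search. Nothing is therefore concluded on where TBX19 or PITX factors bind near Pomc. Among 27025 RefSeq promoter windows of the same length, 66.0% held the E-box, 13.0% the TATA letters, 6.38% the PITX core and 3.31% the T-box half-site. The TATA letters were added to the search after the sequence had been read.

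Pomc was almost 3 times as high in CGP as in CON. Its signal was 10.92, 11.02 and 10.89 on the CGP arrays and 9.38, 9.35 and 9.43 on the CON arrays. The groups did not overlap, and the gap of 1.47 between the nearest arrays was far wider than the spread inside either group. The means were 10.95 ± 0.0667 in CGP and 9.38 ± 0.0401 in CON (SD, n = 3 each), a difference of 1.56 (SE 0.0453, unadjusted 95% interval 1.46 to 1.67) or 2.95-fold. Across the 16663 genes, 95% of differences lay between -0.14 and 0.15, with a median of -0.002. A difference of this size or larger, in either direction, was found for 2 genes, Pomc itself and Scgb1c1, a secretoglobin. Scgb1c1 averaged 5.81 in CGP and 7.45 in CON. Its CGP arrays (5.76, 5.86 and 5.80) all lay below the signal minimum of 6. It was tested because its mean over the 6 arrays was 6.63. In RNA of a whole tissue piece, more cells that express a gene and more RNA per cell cannot be told apart.

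Oacyl was higher in CGP by a smaller amount. Its signal was 7.79, 7.85 and 7.75 on the CGP arrays, against 7.28, 7.0 and 7.11 on the CON arrays. The groups did not overlap, with a gap of 0.46. The means were 7.80 ± 0.0536 in CGP and 7.13 ± 0.142 in CON (SD, n = 3 each), a difference of 0.66 (SE 0.0696, 95% interval 0.50 to 0.82) or 1.58-fold, and 5 genes, Oacyl included, differed by at least as much. Pomc and Oacyl were 2 of the 3 probesets (0.0164% of those tested) called higher in CGP that also passed a 1.4-fold minimum. Since that is how they came to be chosen, nothing is read from it.

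**Figure D1:**
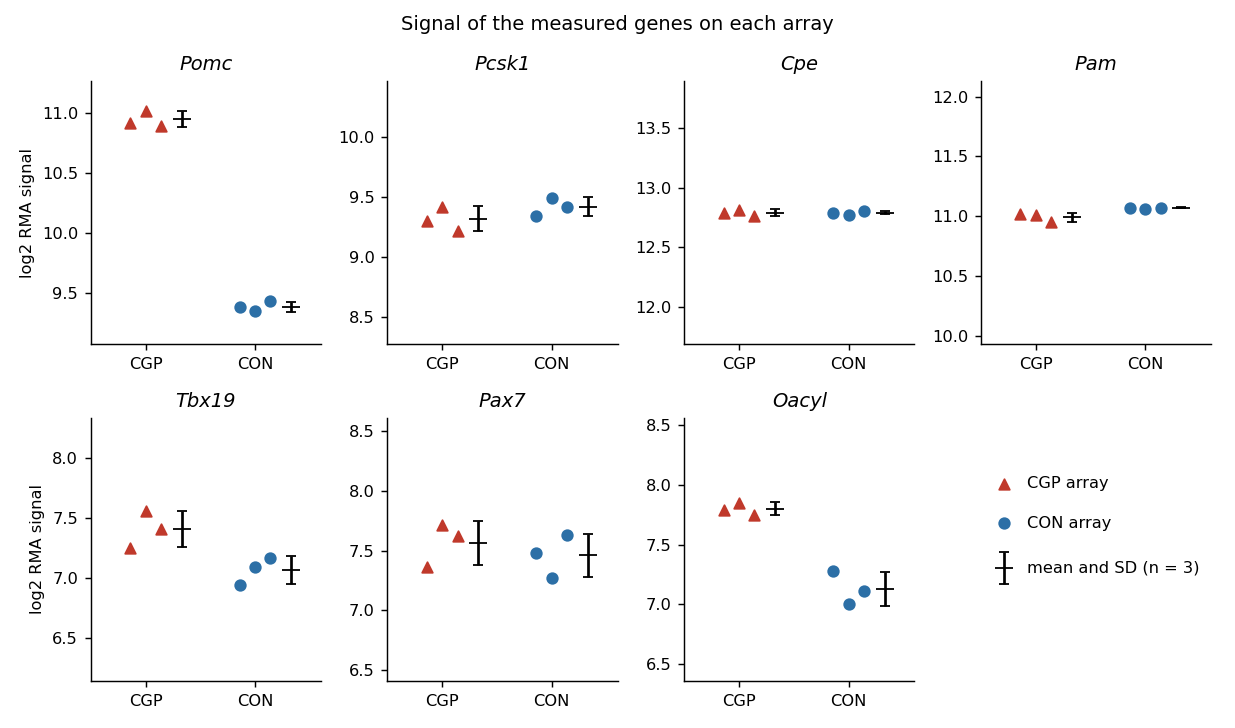
Signal of the 7 measured genes on each array (y axis, log2 RMA signal, the same span in every panel), with CGP arrays as triangles on the left, CON arrays as circles on the right, and the mean and SD of each group (n = 3) as a bar. The CGP and CON arrays are separated by 1.47 for Pomc and by 0.46 for Oacyl, and they overlap for Pcsk1, Cpe and Pax7.

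Tbx19, the T-box factor of both POMC-producing pituitary cell types, stood next in size but did not pass the test. It measured 7.25, 7.56 and 7.41 in CGP and 6.94, 7.09 and 7.17 in CON. All CGP arrays were above all CON arrays, though the lowest CGP array exceeded the highest CON array by only 0.08. The means of 7.41 ± 0.154 in CGP and 7.07 ± 0.117 in CON (SD, n = 3 each) differed by 0.34 (SE 0.085, 95% interval 0.14 to 0.53; adjusted p = 0.245, limma). A difference of at least this size was found in 37 genes, 0.222% of those tested.

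Pax7, which in mouse separates melanotrophs from corticotrophs, did not pass the test. It measured 7.36, 7.71 and 7.62 in CGP and 7.48, 7.27 and 7.63 in CON. The groups overlapped, and the difference of 0.10 had a 95% interval of -0.15 to 0.36 (adjusted p = 0.77, limma). The interval leaves room for a change in either direction.

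None of the 3 processing enzymes measured passed the test. Pcsk1, the first convertase to cut the precursor, measured 9.30, 9.42 and 9.22 in CGP and 9.34, 9.49 and 9.42 in CON. The arrays of the 2 groups overlapped, and the difference was -0.10 (SE 0.0617, 95% interval -0.24 to 0.04; adjusted p = 0.585, limma).

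Cpe, the carboxypeptidase, had the smallest difference of the 7 genes. Its signal was 12.79, 12.81 and 12.76 in CGP and 12.79, 12.77 and 12.80 in CON. Both group means were 12.79, and the difference of 0.00 had a 95% interval of -0.08 to 0.08 (adjusted p = 0.98, limma).

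Pam, the amidating enzyme, measured 11.02, 11.01 and 10.95 in CGP and 11.07, 11.06 and 11.07 in CON. Here the CGP arrays lay below the CON arrays, by a gap of 0.04. The means of 10.99 ± 0.0345 in CGP and 11.07 ± 0.00552 in CON (SD, n = 3 each) differed by -0.07 (SE 0.0353, 95% interval -0.15 to 0.01; adjusted p = 0.51, limma).

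Over the 7 genes, 2 were called higher in CGP, against 0.154% of all probesets, 0 lower, against 0.126%, and 5 did not pass. The differences were positive for 5 genes and negative for 2, with a median of 0.10. The groups did not overlap, with CGP above, for 3 of the 7 genes, against 7.59% of all probesets tested, and with CGP below for 1 gene, against 9.95% of all probesets. Because Pomc and Oacyl were picked for this contrast, these counts describe the set and are not read further.

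**Figure D2:**
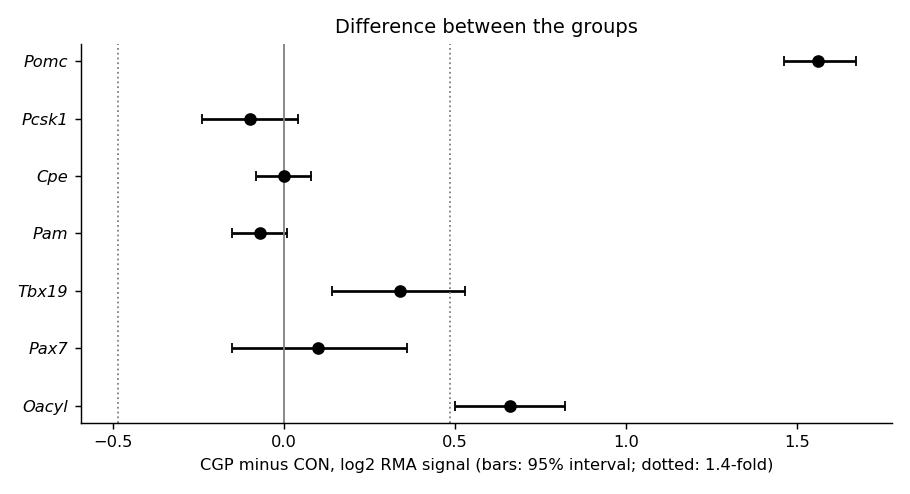
Difference of CGP minus CON in log2 RMA signal (x axis) for the 7 measured genes, with unadjusted 95% intervals as bars and dotted lines at a 1.4-fold change in either direction. The intervals of Pomc (1.46 to 1.67) and Oacyl (0.50 to 0.82) are a description, since both genes were chosen on this contrast. That of Tbx19 lies above 0, but the gene did not pass after adjustment (adjusted p = 0.245, limma). Those of Pcsk1, Cpe, Pam and Pax7 hold 0.

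**Figure D3:**
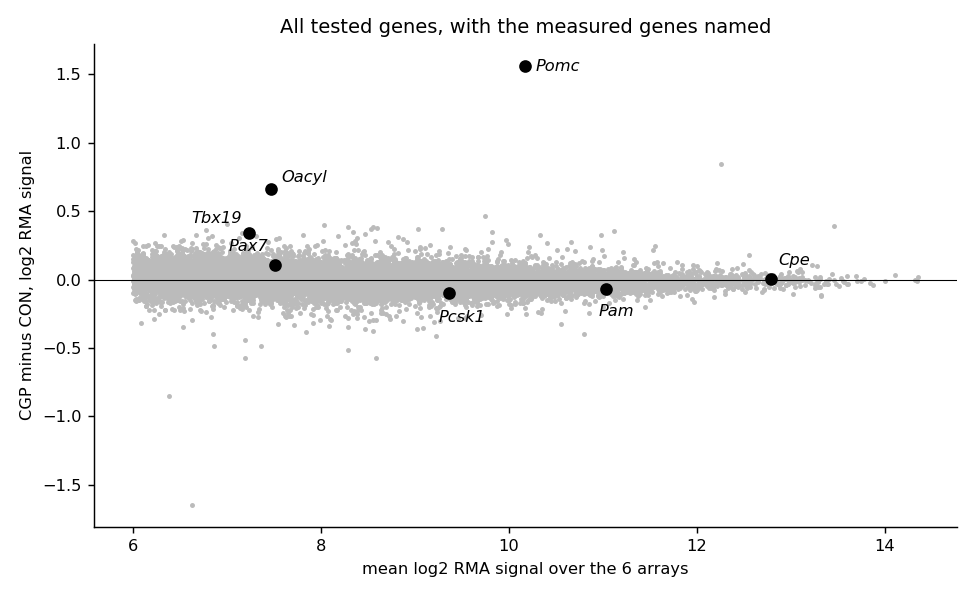
Difference of CGP minus CON (y axis, log2 RMA signal) against the mean signal over the 6 arrays (x axis, log2 RMA signal) for each of the 16663 tested genes, 1 probeset a gene, with the 7 measured genes as black points. Pomc, at 1.56, stands above every other gene, and Pcsk1, Cpe, Pam and Pax7 lie within the cloud.

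The wider list of prohormone processing and the secretory granule, with Pcsk1, Cpe and Pam in it, held no called gene. Of 20 genes listed, 19 were tested and 0 passed limma's test in either direction, with 0 higher and 1 lower at an unadjusted p under 0.05, against 5.25% and 5.83% of all probesets. Their differences ran from -0.13 to 0.08, 6 of them positive and 13 negative, with a median of -0.041 beside -0.002 for all genes. The lowest adjusted p of the list, 0.347, belonged to Prcp, prolylcarboxypeptidase, which inactivates alpha-MSH and averaged 8.11 in CGP and 8.24 in CON. Pcsk1n, which encodes the proSAAS inhibitor of prohormone convertase 1, had the largest positive difference, 0.08 (13.13 in CGP, 13.05 in CON; adjusted p = 0.547). Chga and Chgb, the granins that fill the granule, differed by -0.03 and 0.06. In 6 of the 19 genes, 31.6%, the CGP arrays lay wholly below the CON arrays, against 9.95% of all probesets, 28.6% of the hypothalamic list, 25% of the receptor list and 23.1% of the arcuate list described below. Among the 6 were Prcp, Scg2, Cpd and Qpct, with differences of -0.13, -0.09, -0.09 and -0.09.

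Among regulators of corticotrophs and melanotrophs, 16 of 18 listed genes were tested, Tbx19 and Pax7 included. In limma 3 were higher and 2 lower at an unadjusted p under 0.05, against 5.25% and 5.83% of all probesets. CGP lay wholly above CON in 31.2% and wholly below in 18.8%, against 7.59% and 9.95% of all probesets. After adjustment only Nr4a1 passed, in the upward direction, against 0.154% of all probesets called higher. It encodes the orphan nuclear receptor NUR77, which binds the Pomc promoter downstream of CRH in corticotrophs and is also an immediate-early gene in many cells. Nr4a1 measured 9.99, 9.97 and 10.01 in CGP and 9.63, 9.65 and 9.65 in CON. The groups were far apart for their spread, with a difference of 0.34 (SE 0.0335, 95% interval 0.27 to 0.42; adjusted p = 0.0121, limma). The difference was 0.34 to 0.35 with any 1 array left out, but the adjusted p then rose above 0.05 for each of the 6 arrays, to 0.105 at most.

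The related Nr4a2 was 9.96 in CGP and 9.81 in CON, a difference of 0.15 that did not pass (adjusted p = 0.303). Crhr1, the CRH receptor through which the hypothalamus drives ACTH release, was 8.53 in CGP and 8.67 in CON (difference -0.14, adjusted p = 0.241). Pitx1 and Neurod1, partners of TBX19 in Pomc transcription, differed by 0.03 and 0.04. Drd2, the dopamine receptor that holds melanotrophs in check and is also made by neurons, differed by -0.04. The median difference of the 16 genes was 0.057, with 10 positive and 6 negative. Without Tbx19 and Pax7 it was 0.037 over 14 genes. Summed linear signal over the 16 genes was 12078 to 12458 on the CGP arrays and 11543 to 11704 on the CON arrays. Such a sum, here and below, is weighted towards probesets of high signal and is given as a description. The highest signal in this sum was that of Gabbr1, at 12.59 in CGP and 12.52 in CON (adjusted p = 0.531, limma).

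No gene of the arcuate POMC neuron list passed the test. Of 14 listed genes, 13 were tested. In limma 0 were higher and 2 lower at an unadjusted p under 0.05, against 5.25% and 5.83% of all probesets. The differences were positive for 6 and negative for 7, with a median of -0.014. Cartpt, whose CART peptide is made by many arcuate POMC neurons, had the largest difference and was on the lower side. It measured 10.28, 10.21 and 10.18 in CGP and 10.49, 10.43 and 10.48 in CON. All CGP arrays lay below all CON arrays, and the difference of -0.24 (SE 0.0406, 95% interval -0.34 to -0.15) missed the threshold (adjusted p = 0.0696, limma). It passed under 3 of 15 alternatives. Nkx2-1, a factor of the ventral hypothalamus, averaged 9.06 in CGP and 9.19 in CON (difference -0.14, adjusted p = 0.422). The leptin receptor gene Lepr and the POMC neuron factor Isl1 differed by -0.03 and -0.01. The summed linear signal of the 13 genes was 8741 to 9176 on the CGP arrays and 9234 to 9334 on the CON arrays.

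Receptors and modifiers of the POMC-derived peptides gave 12 tested genes of 15 listed, with 0 passing limma's test. At an unadjusted p under 0.05, 1 was higher and 2 lower, against 5.25% and 5.83% of all probesets. There were 7 positive and 5 negative differences, with a median of 0.006. Mc3r, a melanocortin receptor of the hypothalamus, averaged 8.65 in both groups. Mc4r was 7.94 in CGP and 8.06 in CON (difference -0.12, adjusted p = 0.535). Oprm1, the mu-opioid receptor at which beta-endorphin acts, was 8.41 in CGP and 8.28 in CON (difference 0.13, adjusted p = 0.331), and Oprk1, the kappa receptor, was 8.08 in CGP and 8.21 in CON (difference -0.13, adjusted p = 0.437).

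**Figure D4:**
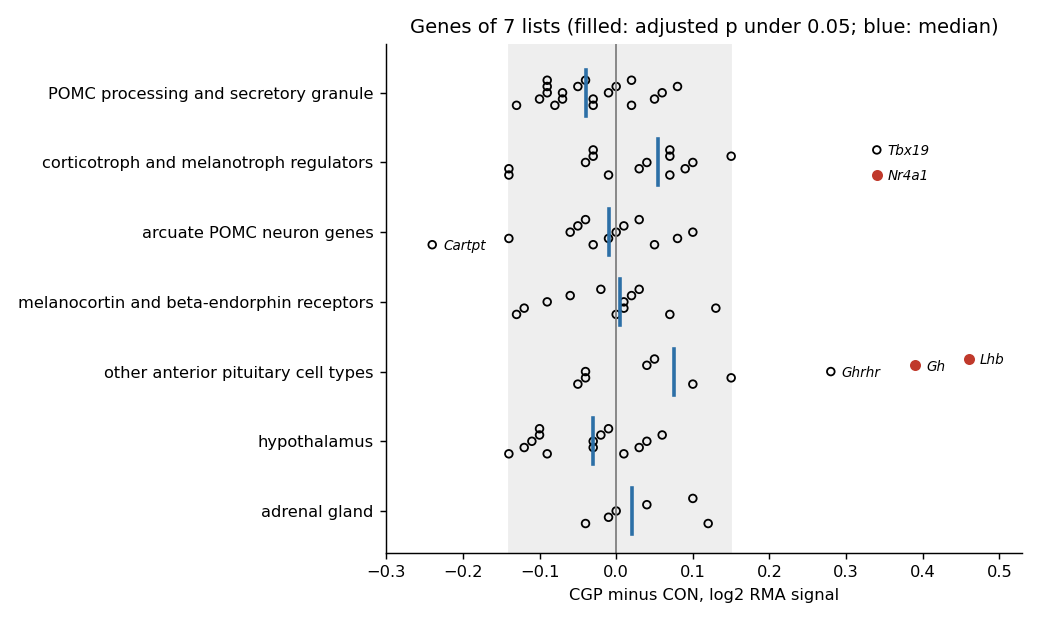
Difference of CGP minus CON in log2 RMA signal (x axis) for each tested gene of 7 lists (rows), with filled points for an adjusted p under 0.05, blue lines for the list's median and a grey band for the middle 95% of all genes, -0.14 to 0.15. The called genes are Nr4a1 among the regulators and Gh and Lhb among the genes of other pituitary cells.

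A pair of hormone genes of other anterior pituitary cells, Gh and Lhb, rose beside Pomc. Of 14 listed genes, 10 were tested, and 2 were called higher and 0 lower, against 0.154% and 0.126% of all probesets. At an unadjusted p under 0.05 in limma, 5 were higher and 0 lower, against 5.25% and 5.83% of all probesets. The groups did not overlap, with CGP above, for 4 of the 10 genes, against 7.59% of all probesets. With CGP below, they did not overlap for 1 of the 10, Nr5a1, against 9.95% of all probesets. Gnrhr, the gonadotroph receptor, lay below the signal minimum, and 3 genes were not analysed here. Gh, growth hormone of the somatotrophs, measured 13.65, 13.64 and 13.69 in CGP and 13.30, 13.22 and 13.28 in CON, a difference of 0.39 (SE 0.038, adjusted p = 0.0121, limma). Lhb, the beta subunit of luteinizing hormone in gonadotrophs, measured 9.95, 10.02 and 9.94 in CGP and 9.54, 9.39 and 9.60 in CON, a difference of 0.46 (SE 0.0572, adjusted p = 0.0253, limma). Neither gene's groups overlapped, and both differences were well below the 1.56 of Pomc. With any 1 of the 6 arrays left out neither gene passed, with differences of 0.37 to 0.41 for Gh and 0.40 to 0.51 for Lhb.

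Ghrhr, the receptor through which somatotrophs respond to the hypothalamus, was 8.72 in CGP and 8.43 in CON (difference 0.28, adjusted p = 0.128). Fshb and Prl differed by 0.15 and 0.10 and did not pass (adjusted p = 0.434 and 0.374). Cga, the subunit shared by the glycoprotein hormones, and Tshb, the thyrotroph subunit, differed by 0.04 and -0.04. Foxl2, Trhr and Nr5a1, the other genes of the list, differed by 0.05, -0.04 and -0.05, with adjusted p-values of 0.829, 0.894 and 0.646. The list's median was 0.076, with 7 positive and 3 negative differences. Summed over the 10 genes, linear signal was 28082 to 28905 on the CGP arrays and 23824 to 24752 on the CON arrays. Gh and Prl, the probesets of highest signal, carried 89.4% of the gap between the group means. Since signals of different probesets cannot be compared, this is not a share of transcript. The other 8 genes summed to 5189 to 5296 on the CGP arrays and 4614 to 4981 on the CON arrays. The part of pituitary tissue in the differences of Pomc, Oacyl and Tbx19 was not tested.

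Markers of the hypothalamus and the adrenal gland held no called gene. Of 15 hypothalamic genes, 14 were tested and 0 passed. In limma 0 were higher and 3 lower at an unadjusted p under 0.05, against 5.25% and 5.83% of all probesets. The median was -0.031, and the summed signal was 31729 to 32689 in CGP and 31820 to 33649 in CON. The largest differences there were those of Nkx2-1, given above, and of Hdc, the histamine-forming enzyme, at 8.87 in CGP and 8.99 in CON (adjusted p = 0.362). Of 10 adrenal genes, 6 were tested and 0 passed. In limma 1 was higher and 0 lower at an unadjusted p under 0.05, against the same shares of all probesets. The median was 0.020, and the summed signal was 518 to 556 in CGP and 509 to 544 in CON. Star, which carries cholesterol to steroid synthesis and is also made in brain, was 6.72 in CGP and 6.60 in CON (adjusted p = 0.374). Pnmt, the adrenaline-forming enzyme, was 6.34 in CGP and 6.24 in CON (adjusted p = 0.675).

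**Figure D5:**
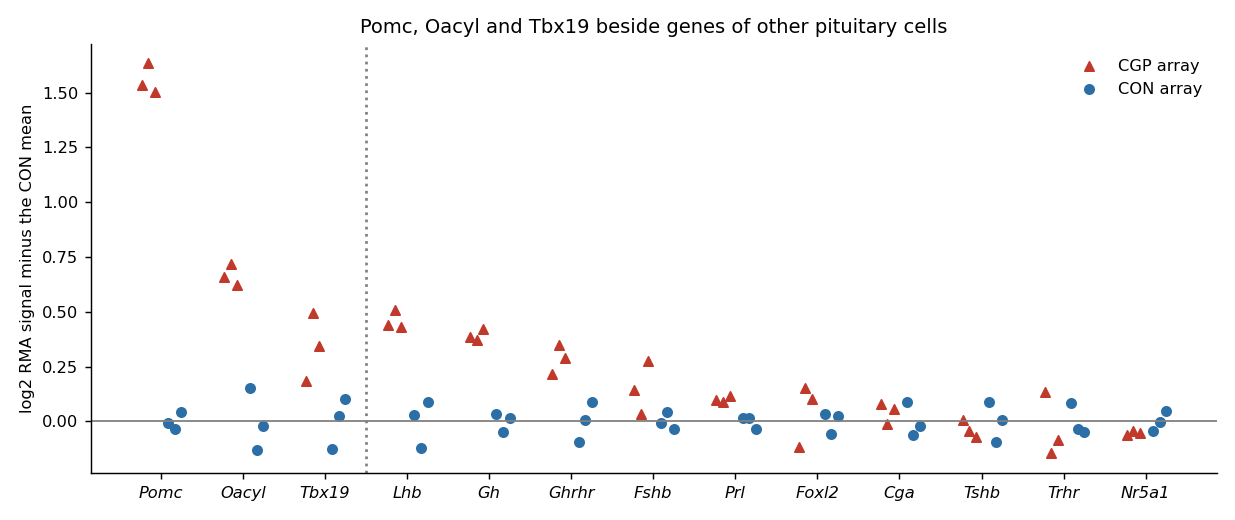
Signal of each array minus the CON mean of the gene (y axis, log2 RMA signal) for Pomc, Oacyl and Tbx19 (left of the dotted line) and for the 10 tested genes of other pituitary cells, with CGP arrays as triangles and CON arrays as circles. CGP arrays lie above all CON arrays for Pomc, Oacyl, Tbx19, Lhb, Gh, Ghrhr and Prl, they overlap for Fshb, Foxl2, Cga, Tshb and Trhr, and they lie below all CON arrays for Nr5a1.

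The pattern of Pomc over the 6 arrays was set against 96 tested genes whose signal ranged over at least 0.5. Predicted genes, RIKEN clone genes and small RNA genes had been left out by their symbols. Because the 2 groups lay apart for Pomc, Pearson's r follows mainly the group difference and is given as a description. The genes most like Pomc were Ttr (r = 0.993), Slc4a5 (0.975), Oacyl (0.972), Lhb (0.972) and Chrnb4 (0.953). Ttr, the transthyretin gene that is strongly expressed in the choroid plexus, measured 12.70, 12.66 and 12.68 in CGP and 11.90, 11.81 and 11.79 in CON. Its difference of 0.84 was above the 0.66 of Oacyl and below the 1.56 of Pomc. Slc4a5, a bicarbonate transporter also known from the choroid plexus, averaged 7.20 in CGP and 6.80 in CON.

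The genes most unlike Pomc were Rln3 (r = -0.995), Timp1 (-0.988), Scgb1c1 (-0.982), Prg4 (-0.974) and S100a5 (-0.970). Rln3, which encodes the neuropeptide relaxin-3 of the brainstem, averaged 8.03 in CGP and 8.55 in CON, and Timp1, an inhibitor of matrix metalloproteinases, 7.12 in CGP and 7.60 in CON. Among the other measured genes of the set, r with Pomc was 0.853 for Tbx19, -0.854 for Pam, -0.534 for Pcsk1, 0.361 for Pax7 and 0.161 for Cpe. The minimum range was not applied to these genes. With each group's mean taken out, r was positive for all of them. It was 0.63 for Tbx19, 0.53 for Pam, 0.55 for Pcsk1, 0.68 for Pax7 and 0.90 for Cpe. The negative signs of Pam and Pcsk1 thus follow group differences that did not pass the test.

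Leaving out each array in turn gave differences of 1.524 to 1.587 for Pomc and of 0.60 to 0.74 for Oacyl, which are given as a description. Tbx19 passed under none of 15 alternatives, with adjusted p-values of 0.0538 to 0.504 and differences of 0.26 to 0.42.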

How the data were processed

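Pooled hypothalamic RNA of female mice was hybridised to 6 Affymetrix Mouse Gene 1.0 ST arrays, 3 of CGP and 3 of CON. The authors deposited log2 values of 28471 probesets, for which their processing notes name RMA and Partek (versions and genome build not given in the sources used here). Genes were named from GEO's platform annotation, which gave 1 gene for 18690 probesets. Of these, 451 with a mean below 6 over the 6 arrays were left out, and 18239 (16663 genes) were tested in limma 3.58.1 under R 4.3.3 (lmFit, eBayes, no covariate), with Benjamini-Hochberg adjustment over all of them. The fit was tested on simulated data. A gene was called at an adjusted p under 0.05, and intervals are 95% and unadjusted. The number of arrays limits the precision.

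The genes, the lists and the rule for the genes named were chosen with earlier results of these data known. Named were the measured genes, and in each list the called genes and the 2 with the largest differences. Also named were the 5 genes most and least correlated with Pomc over the arrays, among the genes compared. Other list members were added for their role or their signal after their values had been seen. Sequences came from RefSeq (GRCm38.p6), in which 6 of the 8 listed genes had a promoter entry.

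Same-numbered arrays of the 2 groups did not deviate together (correlations of 0.078, -0.179 and 0.113), so the numbers were not taken as pairs.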

Additional observations from a re-analysis of the deposited data

How the results depend on the processing

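Over 15 alternatives, Tbx19, Pcsk1, Pam, Pax7 and Cpe were called in none. Pomc differed by 1.52 to 1.59 and Oacyl by 0.60 to 0.74. The cause of the changes below was not tested. Against 28 probesets called higher and 23 lower in CGP, a signal minimum of 7 gave 44 and 37, every probeset 3 and 2, a trended and robust prior 113 and 136, ordinary least squares 4 and 2, a 1.4-fold minimum 3 and 6, and leaving out 1 array 2 to 5 and 3 to 8. Array weights gave 39 higher and 38 lower, and centring each array on its median gave 37 higher and 18 lower. With the replicate number as a replicate block, 2 were called higher and 4 lower. Of the 7 measured genes, 2 were called higher, 1 with every probeset, with ordinary least squares and with the replicate block, and 1 to 2 without 1 array. These are Pomc and Oacyl, which were chosen on this contrast, so the counts support nothing. Of the pituitary list, 2 genes were called higher, but 4 with the trended and robust prior, 0 with every probeset, ordinary least squares, the replicate block or a 1.4-fold minimum, and 0 whichever 1 array was left out. Of the regulators, 1 (Nr4a1) was called, and 0 with every probeset, the replicate block or a 1.4-fold minimum, and 0 whichever 1 array was left out. Of the arcuate list 0 were called lower, and 1 (Cartpt) with a minimum of 7, the trended and robust prior or array weights. Cpe, with a difference near 0, turned negative with array weights (-0.0001), without CGP replicate 2 (-0.0086) and without CON replicate 2 (-0.0041). Leaving out 1 array put Cpe between -0.0086 and 0.0192. With 3 arrays a group, the differences of Pax7 and Pcsk1 were within the error of their own probesets.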
